A study of Mus musculus with 5 samples.

Results

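The genes described here are 46 genes of G2, mitosis and cytokinesis, measured in MG5 mouse microglial cells that were given an agonist of the retinoid X receptor (RXR). They were taken by symbol from a fixed list of mitotic cyclins and kinases, spindle checkpoint genes, kinesins, condensin and cytokinesis genes, with the condition that the mean count over 5 libraries was 20 or more. All 46 listed genes met it, out of 45777 genes in the table, of which 13316 reached that mean. The lowest mean count was 383, for Kif18a, and the highest was 16623, for Mki67, so that none of the genes was close to the limit. All 46 also passed the filter on low counts used in the tests. The rule used no measured value of the libraries other than this minimum. The list itself was drawn up with earlier results of these data known.

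Cells enter mitosis when cyclin B binds CDK1 and CDC25 phosphatases remove the inhibitory phosphates from that kinase. The spindle checkpoint then holds the cell until every kinetochore is attached, after which the anaphase-promoting complex with its activator CDC20 destroys securin and cyclin B, the sister chromatids part and the cell divides. The messages of this machinery accumulate late in the cell cycle under the B-MYB and FOXM1 factors and are repressed in resting cells by the DREAM complex, so in bulk RNA they report how many cells are cycling as well as how much each cell makes. Fewer cells in mitosis and less RNA per mitotic cell cannot be told apart in these libraries.

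The tested cells received 10 µM 6OHA for 6 h (1 library, replicate 2) or 10 µM bexarotene, abbreviated BEX, for 6 h (3 libraries, replicates 1 to 3), and the reference was 1 library of untreated cells (replicate 3). BEX is an RXR agonist in clinical use, and 6OHA is the code name of another RXR agonist made by the submitters, who asked how its activity differs from that of BEX. Each group had 3 samples by the study's description; 6OHA replicates 1 and 3 and untreated replicates 1 and 2 were not analysed here. The medium of every group had been conditioned by A1 astrocyte-like cells. For untreated cells the labels name neither a vehicle nor a time, so effects of vehicle or handling cannot be told apart from those of the agonists. MG5 is a single cell line; the labels call its genotype WT, whereas the line is known to have been established from microglia of p53-deficient mice. The labels do not say whether replicates came from separate cultures, so p-values cover the spread between the samples at hand, which may be technical. Only the 3 BEX libraries contributed to that spread, and the single libraries of 6OHA and untreated cells were taken to vary as they do.

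The libraries held 33823181 to 40545305 counts of poly-A RNA. The 15 microglia and macrophage markers summed to 10399.9 CPM (counts after scaling every library to one size) with 6OHA, 10592 to 10755 CPM with BEX and 11064 CPM in untreated cells. Of these 15, 0 rose and 5 fell with 6OHA (33.3% called, against 14.8% of all tested genes). With BEX 2 rose and 4 fell (40%, against 13.6%). Gfap, Rbfox3, Olig2 and Col1a1, which define astrocytes, neurons, oligodendrocytes and fibroblasts, had at most 4 counts in any library, but other markers of those cells moved. The 9 astrocyte markers, of which 3 passed the filter on low counts, summed to 16.01 CPM with 6OHA, 18.0 to 20.5 CPM with BEX and 24.03 CPM in untreated cells, and Slc1a2 was called lower with each agonist. The 8 neuron markers, 2 of them past the filter, summed to 9.84 CPM with 6OHA, 8.73 to 9.62 CPM with BEX and 13.5 CPM in untreated cells, and both, Map2 and Snap25, were called lower with BEX. The 7 oligodendrocyte markers, 2 of them past the filter, summed to 95.6 CPM with 6OHA, 92.9 to 95.1 CPM with BEX and 76.9 CPM in untreated cells, nearly all from Mbp, which was called higher with each agonist. The 8 fibroblast and endothelial markers, 3 of them past the filter, summed to 216 CPM with 6OHA, 189 to 192 CPM with BEX and 240.2 CPM in untreated cells, mostly from Kdr, which was called lower with BEX. The part of these markers in the results was not tested. Mean levels compared between genes are given as the authors' TPM, which correct for length; comparisons between libraries use CPM. Calls of higher or lower rest on edgeR's quasi-likelihood test, with p-values adjusted by the Benjamini-Hochberg method over all 15462 genes tested and a threshold of 0.05. Intervals are 95% intervals of the log2 fold change from the same fit.

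The promoters of these genes often held the 2 sequence elements for which mitotic genes are known. In RefSeq's mouse assembly GRCm38.p6, which is the build called mm10, a window of 250 bases before to 50 bases after the start site was available for 38 of the 46 genes. The cell cycle homology region (CHR), searched as TTTGAA or TTTAAA on both strands, was found in 30 of them (78.9%), against 30.6% of all 27025 promoters in the table and 23.5% of the 9931 promoters whose genes had a mean count of 20 or more. The CCAAT box, on both strands, was found in 28 of 38 (73.7%), against 41.1% and 43.2%. Both elements stood together in 25 of 38 (65.8%), against 12.2% and 9.75%. The 5 stretches that follow lie directly before the first annotated base of genes that the comparisons turn on: Plk1 and Racgap1, which were called lower with an agonist, Mki67 and Hmmr, which were called higher with 6OHA, and Top2a, the most abundant message of the set per length. Capitals mark both forms of the CHR and the CCAAT box wherever they occur on the printed strand or, as the reverse complement, on the other.
Plk1 (chr7:122159285-122159434, plus strand): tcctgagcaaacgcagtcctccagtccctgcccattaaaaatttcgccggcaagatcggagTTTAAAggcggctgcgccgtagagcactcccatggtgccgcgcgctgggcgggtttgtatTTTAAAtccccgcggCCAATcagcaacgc
Mki67 (chr7:135716451-135716600, minus strand): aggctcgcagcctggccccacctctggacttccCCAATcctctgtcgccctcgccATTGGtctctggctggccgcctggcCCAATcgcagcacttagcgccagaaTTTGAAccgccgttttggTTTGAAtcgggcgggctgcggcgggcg
Hmmr (chr11:40733465-40733614, minus strand): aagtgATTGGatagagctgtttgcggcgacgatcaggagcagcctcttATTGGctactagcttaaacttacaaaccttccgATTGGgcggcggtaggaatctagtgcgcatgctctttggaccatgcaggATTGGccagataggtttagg
Racgap1 (chr15:99651657-99651806, minus strand): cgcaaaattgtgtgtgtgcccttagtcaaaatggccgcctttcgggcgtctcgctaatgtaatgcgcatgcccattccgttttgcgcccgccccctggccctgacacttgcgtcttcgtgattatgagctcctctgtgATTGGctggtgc
Top2a (chr11:99024200-99024349, minus strand): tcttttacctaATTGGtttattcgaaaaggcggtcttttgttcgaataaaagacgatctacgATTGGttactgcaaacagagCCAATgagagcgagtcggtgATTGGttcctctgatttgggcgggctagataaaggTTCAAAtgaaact

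A CHR and a CCAAT box stood in the stretches of Plk1, Mki67 and Top2a, and the stretches of Hmmr and Racgap1 held CCAAT boxes alone. Positions of motifs are counted from RefSeq's start site, whose base is 0, whereas the printed stretches end before any annotated exon. Their last base lies at -1 for Plk1 and Racgap1, -11 for Top2a, -28 for Hmmr and -72 for Mki67. The CHR of Hmmr began 8 bases and that of Racgap1 5 bases after the start site, outside the printed part. Across the 38 promoters, 32 of 45 CHR matches began between 50 bases before and 50 bases after the start site, with a median at -15, and 42 of 62 CCAAT boxes began in the 120 bases before it, with a median at -72.5. Within the whole window, Mki67 and Hmmr, which were called higher, and Plk1 and Racgap1, which were called lower, all held both elements. Birc5, which was called lower with BEX, had a CHR match at -220 and no CCAAT box, and Mad2l1, Pttg1, Nuf2, Kif18a and Nusap1 had neither in the window. A match is a run of letters and not a shown binding site.

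**Figure D1:**
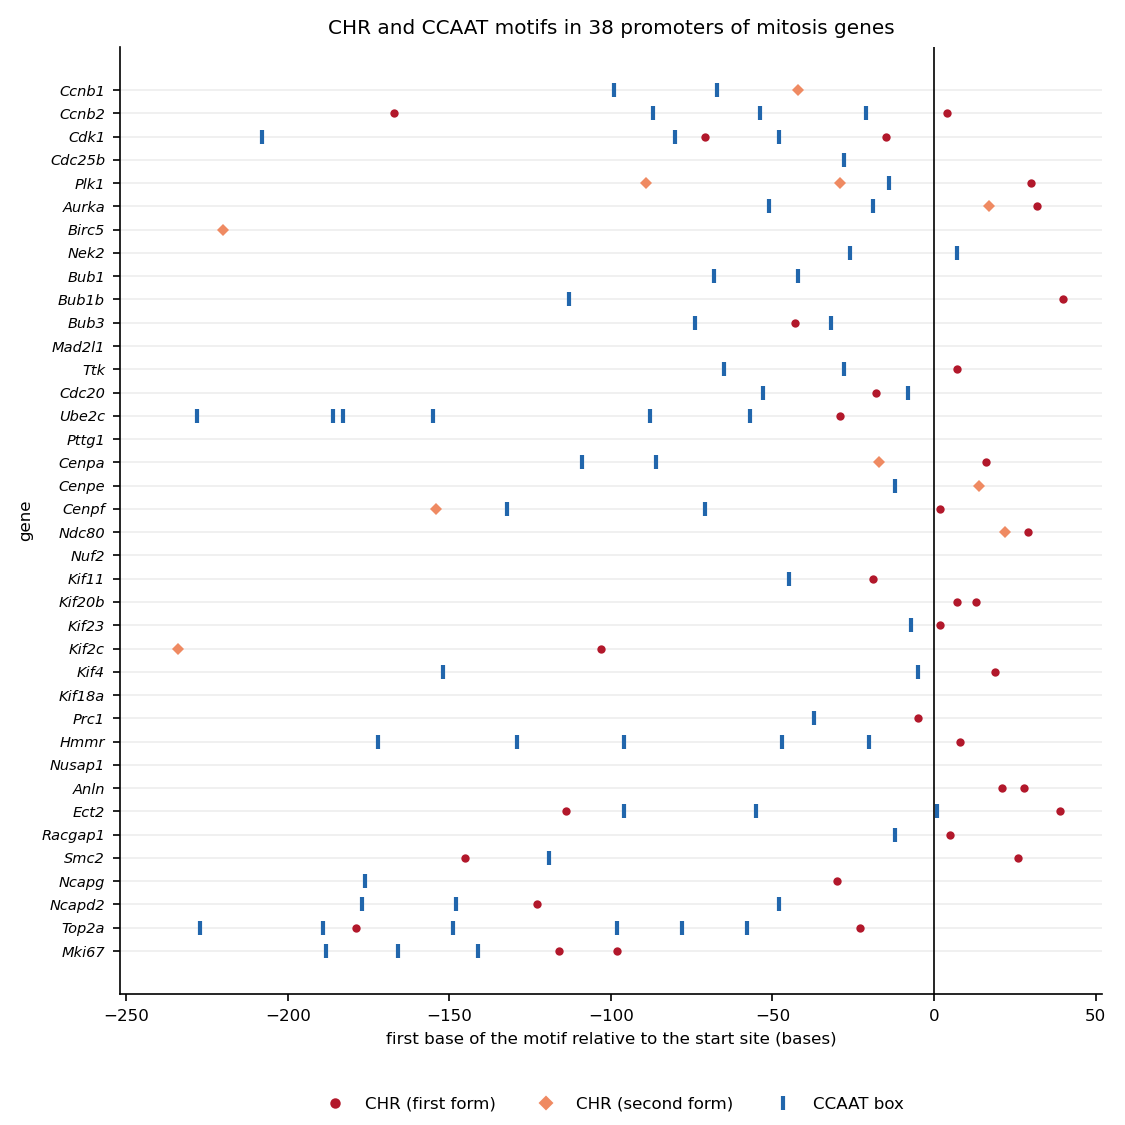
Position of each CHR match (red circles for the TTTGAA form, orange diamonds for the TTTAAA form) and each CCAAT box (blue bars) in 38 promoters, one gene per row, against the distance in bases of the motif's first base from the start site (vertical line at 0). CHR matches gather around the start site, with 32 of 45 within 50 bases of it, and CCAAT boxes lie mostly in the 120 bases before it (42 of 62).

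The mitotic messages were abundant. In TPM, levels ran between 8.34 and 153 with 6OHA, between 6.41 and 143 as means of the BEX libraries, and between 6.03 and 133 in untreated cells, with Kif18a lowest and Top2a highest in each group. Top2a, which untangles sister DNA, stood above 92.1% of tested genes in untreated cells, and the median gene of the set stood above 76.9%. Ube2c, which comes next in untreated cells, had 121 TPM with 6OHA, 118 ± 4.71 TPM with BEX (SD, n = 3) and 132 TPM in untreated cells. The coefficient of variation between the 3 BEX libraries ran from 0.484% (Cenpe) through a median of 3.11% to 7.22% (Cenpf).

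With BEX, 3 of the 46 genes were called lower than in untreated cells and 0 higher, and 43 were not called. The 3 were Birc5, Kif20a and Racgap1, which each fell by about the same amount. Over all tested genes 13.6% were called in this comparison, 7.55% higher and 6.03% lower. The 3 of 46 genes called (6.52%) lay below the background share for both directions together. They lay close to the share called lower, the direction of all 3. At an unadjusted p under 0.05 the count was 10 of 46 in either direction (21.7%, against 26.7% of all tested genes), and DESeq2 and limma-voom also called 0 higher. The median log2 fold change of the 46 genes was -0.07, against -0.0014 over all tested genes, and the values ran from -0.26 (Pttg1) to 0.12 (Hmmr). All 46 intervals lay within a 1.5-fold change in either direction, against 61.2% of the intervals of all tested genes. The intervals of the 46 genes were also narrower, with a median standard error of 0.0757 against 0.112. The share within 1.5-fold therefore depends on precision as well as on the size of the changes.

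With 6OHA, 2 genes were called higher than in untreated cells, Mki67 and Hmmr, 2 were called lower, Plk1 and Aurkb, and 42 were not called. The background share in this comparison was 14.8%, with 7.59% of genes higher and 7.19% lower, so the 4 genes called (8.7%) were again below it. At an unadjusted p under 0.05 the count was 10 of 46 (21.7%, against 28.4% of all tested genes). The median was -0.000256, against -0.0031 over all tested genes, with a range from -0.30 (Plk1) to 0.42 (Kif18a). Within 1.5-fold lay 45 of 46 intervals, against 52.7% over all tested genes, at median standard errors of 0.0936 and 0.140. Both comparisons use the same untreated library, so they are not independent of each other.

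Between the agonists at equal dose and time, 2 genes were called higher with 6OHA than with BEX, Mki67 and Ccnb1, and 0 lower. That was 4.35% called, beside a background of 6.53% (2.4% higher, 4.13% lower). At an unadjusted p under 0.05 the count was 13 in either direction (28.3%, against 20.5% of all tested genes), and DESeq2 and limma-voom also called 0 lower. The median difference was 0.08, against -0.0040 over all tested genes, and the values ran from -0.18 (Plk1) to 0.37 (Kif18a). Within 1.5-fold lay 45 of 46 intervals, against 62.9% over all tested genes, at median standard errors of 0.0764 and 0.114. For the other 44 genes the test did not separate the agonists, which does not show that they act alike. Of the 9 calls in the 3 comparisons, DESeq2 lost Birc5, Kif20a, Plk1, Aurkb and Ccnb1. With limma on deposited TPM, or with no filter on low counts, only Mki67 with 6OHA against untreated stayed called. These settings also called fewer of all tested genes. DESeq2 called 9.45% for BEX against untreated, 10.7% for 6OHA against untreated and 5.02% between the agonists. With no filter the shares were 5.57%, 5.2% and 0.871%. Limma on log2(TPM + 1) also split the calls over all tested genes differently, with 615 higher and 293 lower for BEX against untreated (edgeR 1168 and 933), 488 and 297 for 6OHA against untreated (edgeR 1173 and 1112), and 21 and 64 between the agonists (edgeR 371 and 639).

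**Figure D2:**
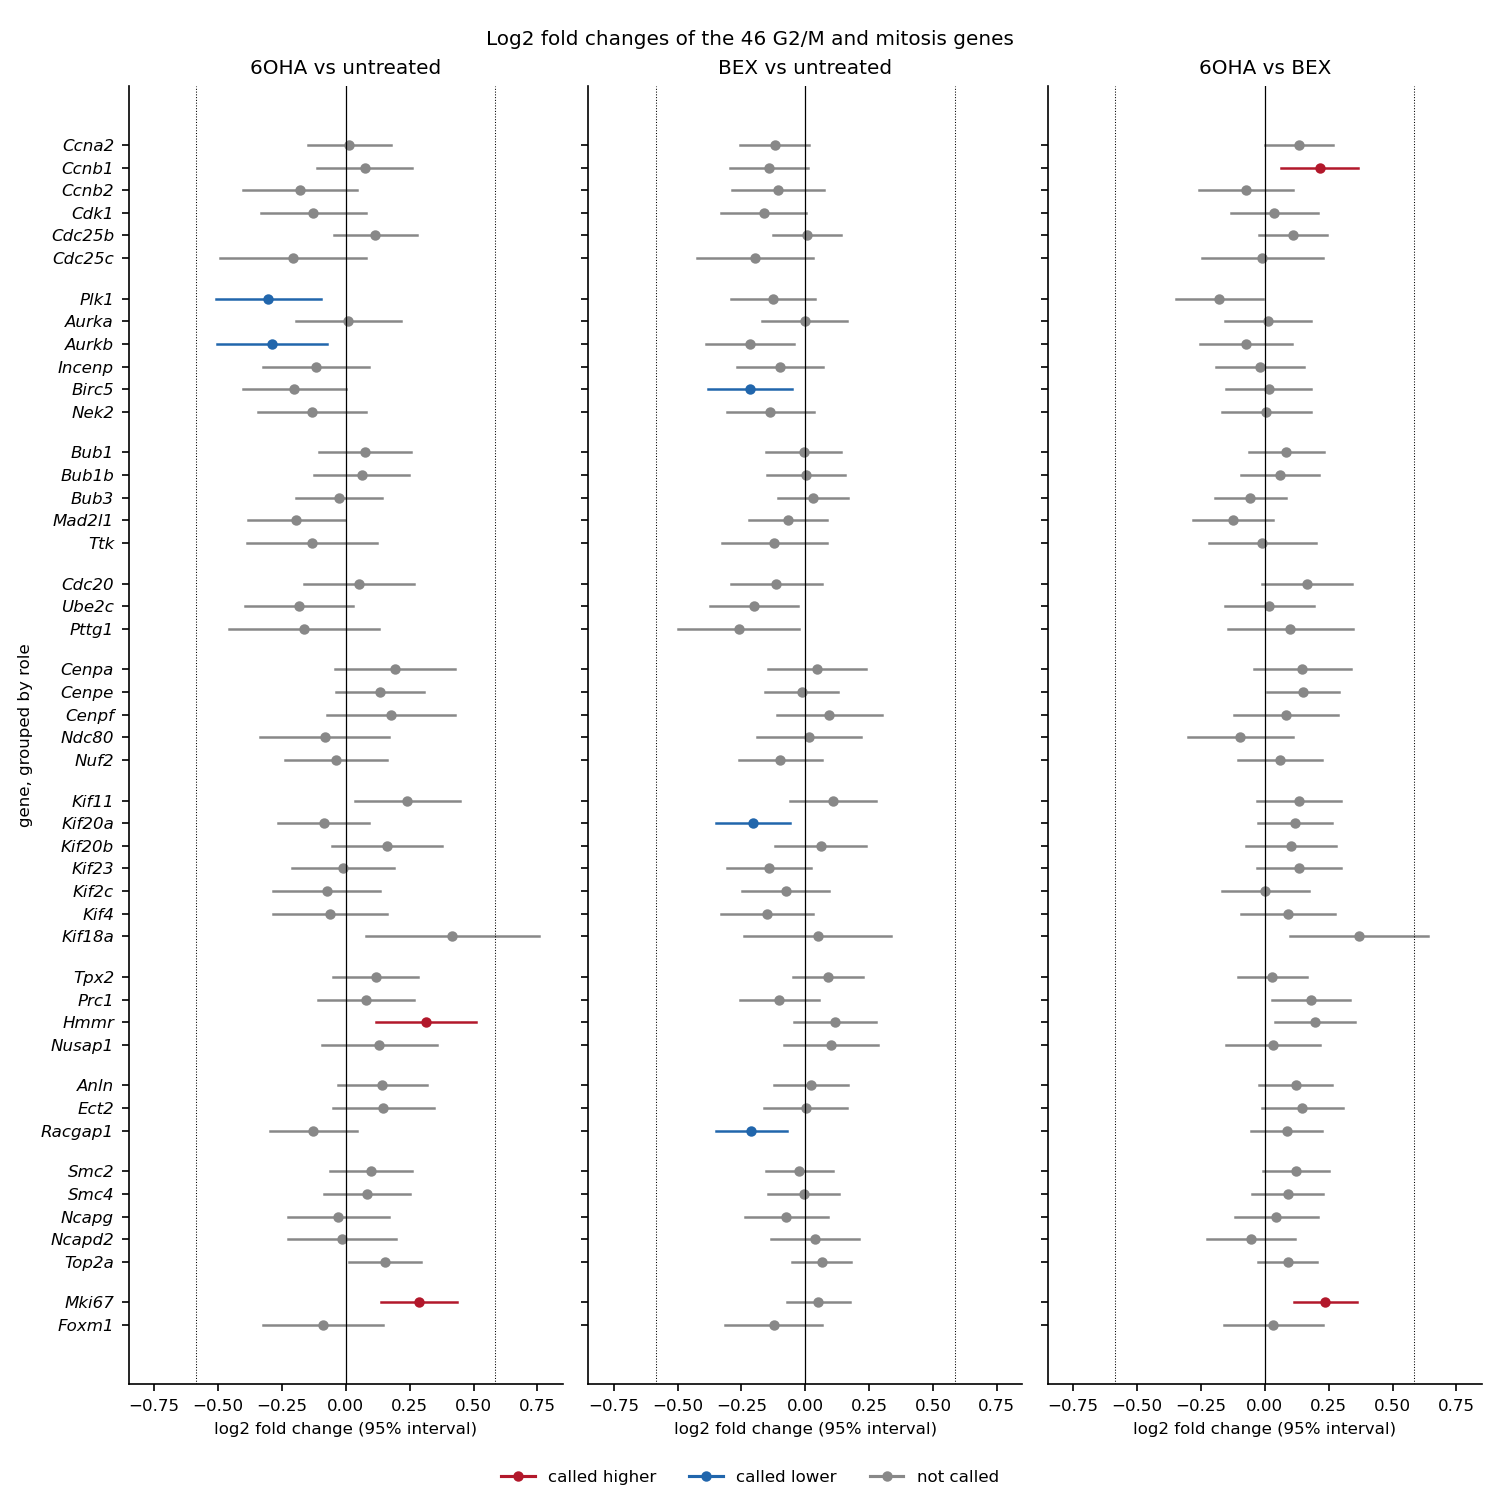
Log2 fold change (points) with its 95% interval (bars) for each of the 46 genes, grouped by role from cyclins at the top to Mki67 and Foxm1 at the bottom, in 6OHA against untreated, BEX against untreated and 6OHA against BEX; red marks genes called higher, blue genes called lower and grey genes not called, and dotted lines mark 1.5-fold. Only Kif18a has intervals that cross a dotted line, in both comparisons of 6OHA, and the coloured genes are Plk1, Aurkb, Hmmr and Mki67 on the left, Birc5, Kif20a and Racgap1 in the middle and Ccnb1 and Mki67 on the right.

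The 6OHA library lay above all 3 BEX libraries in CPM for 28 of the 46 genes (60.9%), against 32.4% of all tested genes, and below all 3 for 4 (8.7%), against 32.5%. The 4 were Plk1, Aurkb, Bub3 and Mad2l1, and without BEX replicate 1 the number was 10. All 3 BEX libraries lay below the untreated library for 26 genes (56.5%, against 34.5%) and above it for 8 (17.4%, against 33.1%), but in deposited TPM they lay above it for 20. For 20 genes (43.5%, against 28.7%), the 6OHA library and all 3 BEX libraries were below the untreated library, and for 7 genes (15.2%, against 27.8%) all 4 were above it. The 6OHA library alone was above the untreated library for 23 genes and below it for 23, close to the 49.3% and 50.4% of all tested genes. Summed over the 46 genes, the level was 4113 CPM with 6OHA, 3858 ± 23.1 CPM with BEX (SD, n = 3) and 3952 CPM in untreated cells. The sum is weighted by Mki67 and Top2a, which were the most counted genes.

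Among the cyclins, CDK1 and its phosphatases, 0 of 6 genes were called in either comparison with untreated cells, and Ccnb1 was called between the agonists. Of all tested genes, 14.8% were called with 6OHA and 13.6% with BEX. Between the agonists the share was 16.7% of the 6 genes, against 6.53%. At an unadjusted p under 0.05 the count was 0 with 6OHA (against 28.4% of all tested genes) and 3 with BEX (50%, against 26.7%). Ccnb1, the cyclin that drives entry into mitosis, had 98.1 CPM with 6OHA, 81.6, 85.2 and 86.6 CPM in BEX replicates 1 to 3, and 93.2 CPM in untreated cells. The 6OHA library was above every BEX library and the untreated library stood between them. The log2 fold change of 6OHA over BEX was 0.22 (interval 0.06 to 0.37, edgeR adjusted p = 0.0456). This call was lost without BEX replicate 1 (0.19, adjusted p = 0.112). Ccnb1 lies on chromosome 13 (100778739 to 100786486, Entrez gene 268697), and its pseudogene Ccnb1-ps had a mean of 57 counts beside 3212 for Ccnb1.

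Cdk1, the kinase that the mitotic cyclins activate, had 61.3 CPM with 6OHA, 58.1, 58.4 and 62.5 CPM with BEX and 66.9 CPM in untreated cells. Every treated library was below the untreated one, but neither difference passed: log2 fold changes were -0.13 (interval -0.33 to 0.08, adjusted p = 0.348) for 6OHA and -0.16 (interval -0.33 to 0.0045, adjusted p = 0.13) for BEX in edgeR's test. Between the agonists the value was 0.04 (interval -0.13 to 0.21, adjusted p = 0.818). Ccna2, the cyclin of S phase and G2, had 153 CPM with 6OHA, 137 to 141 CPM with BEX and 152 CPM in untreated cells. Ccnb2, Cdc25b and Cdc25c, another B-type cyclin and phosphatases that activate CDK1, had log2 fold changes between -0.21 and 0.12 in both comparisons with untreated cells.

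The mitotic kinases and the chromosomal passenger complex held 3 of the 7 genes that were called in at least 1 comparison with untreated cells. Of these 6 genes, 0 rose and 2 fell with 6OHA (33.3% called, against 14.8% of all tested genes). With BEX 0 rose and 1 fell (16.7%, against 13.6%). All treated libraries lay below the 1 untreated library for 5 of the 6, against 28.7% of all tested genes. The exception was Aurka, the spindle pole kinase (50.1 CPM with 6OHA, 48.7 to 51.0 CPM with BEX, 49.8 CPM untreated). Their summed level was 315 CPM with 6OHA, 322 ± 4.02 CPM with BEX (SD, n = 3) and 354 CPM in untreated cells.

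Plk1, the polo-like kinase that promotes mitotic entry, spindle formation and cytokinesis, had 44.1 CPM with 6OHA, 49.0, 49.5 and 51.0 CPM with BEX, and 54.4 CPM in untreated cells. The libraries were ordered without overlap, with 6OHA lowest and untreated highest. With 6OHA it fell by 0.30 on the log2 scale against untreated (interval -0.51 to -0.10, edgeR adjusted p = 0.0262). With BEX the log2 fold change was -0.13 (adjusted p = 0.243), and between the agonists it was -0.18 (interval -0.35 to -0.01, adjusted p = 0.155). Plk1 lies on chromosome 7 (122159435 to 122169884, Entrez gene 18817), directly after the printed stretch.

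Aurkb, the catalytic kinase of the passenger complex, which corrects faulty attachments of microtubules to kinetochores, had 41.8 CPM with 6OHA, 45.6, 43.9 and 42.6 CPM with BEX, and 51.1 CPM in untreated cells. It fell by 0.29 with 6OHA (interval -0.50 to -0.07, edgeR adjusted p = 0.0404). With BEX its log2 fold change was -0.22 (adjusted p = 0.0582), and it was called lower without BEX replicate 2 (-0.21, adjusted p = 0.0378). The call with 6OHA held under 5 of 12 alternatives, with adjusted p between 0.0138 and 0.199 over them.

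Birc5 encodes survivin, the subunit that targets the passenger complex to centromeres. It had 64.2 CPM with 6OHA, 60.7, 65.2 and 64.5 CPM with BEX, and 73.8 CPM in untreated cells, so that every treated library was lower and the agonists overlapped. With BEX it fell by 0.22 (interval -0.38 to -0.05, edgeR adjusted p = 0.0399), and with 6OHA the log2 fold change was -0.20 (adjusted p = 0.112). The BEX call was lost without BEX replicate 1 (-0.18, adjusted p = 0.114). Incenp, the scaffold of the complex, and Nek2, a centrosome kinase, were not called in any comparison.

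The spindle assembly checkpoint had 0 of 5 genes called in each of the 3 comparisons by edgeR, DESeq2 and limma-voom, and 1 gene (Mad2l1, with 6OHA against untreated) at an unadjusted p under 0.05. By edgeR, 14.8% of all tested genes were called with 6OHA, 13.6% with BEX and 6.53% between the agonists. The summed level of Bub1, Bub1b, Bub3, Mad2l1 and Ttk was 380.1 CPM with 6OHA, 382 ± 0.164 CPM with BEX (SD, n = 3) and 386 CPM in untreated cells. Mad2l1, which makes the inhibitor of CDC20 that unattached kinetochores produce, had 61.8 CPM with 6OHA, 66.8, 68.7 and 66.8 CPM with BEX and 70.7 CPM in untreated cells. The 6OHA library was the lowest, and the log2 fold change against untreated was -0.19 (interval -0.38 to -0.0035, edgeR adjusted p = 0.106). Bub1, Bub1b and Bub3 had log2 fold changes between -0.06 and 0.08 in all comparisons. Ttk, the kinase at the head of the checkpoint, had 31.4 CPM with 6OHA, 29.4 to 32.8 CPM with BEX and 34.4 CPM in untreated cells.

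Cdc20, Ube2c and Pttg1, which are the activator of the anaphase-promoting complex, its ubiquitin-conjugating enzyme and its substrate securin, were not called in any comparison. That was 0 of 3 genes, against 14.8% of all tested genes with 6OHA, 13.6% with BEX and 6.53% between the agonists. Pttg1 had the lowest log2 fold change of the set with BEX, -0.26 (interval -0.50 to -0.02, edgeR adjusted p = 0.112), at 16.7 to 19.2 CPM with BEX and 21.5 CPM in untreated cells. Without BEX replicate 2, Pttg1 and Ube2c were called lower with BEX as well. Ube2c shares 592 exonic bases with Tnnc2 on the opposite strand.

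The 5 centromere and kinetochore genes were not called in any comparison, beside 14.8% of all tested genes with 6OHA, 13.6% with BEX and 6.53% between the agonists. Cenpa, the histone H3 variant that marks the centromere, had 48.0 CPM with 6OHA, 46.2, 41.8 and 42.3 CPM with BEX and 42.0 CPM in untreated cells. Cenpe, a kinesin that moves chromosomes to the spindle equator, had 101 CPM with 6OHA, 90.9 to 91.7 CPM with BEX and 92.3 CPM untreated. The 6OHA library was the highest for both and for Cenpf, and the log2 fold changes against untreated lay between 0.13 and 0.19. Ndc80 and Nuf2, partners in the complex that grips the microtubule, had values of -0.08 and -0.04 with 6OHA and of 0.01 and -0.10 with BEX.

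Among the 7 mitotic kinesins, Kif20a fell with BEX (14.3% called, against 13.6% of all tested genes) and none of the others was called. With 6OHA and between the agonists 0 were called, against 14.8% and 6.53%. Kif20a, which works in the central spindle and carries the passenger complex there, had 120.0 CPM with 6OHA, 110.3, 114 and 107 CPM with BEX, and 127 CPM in untreated cells. The BEX libraries were below both lone libraries. The log2 fold change of BEX over untreated was -0.21 (interval -0.35 to -0.06, edgeR adjusted p = 0.0254), and that of 6OHA over untreated was -0.09 (adjusted p = 0.452). The call was lost without BEX replicate 1 (adjusted p = 0.0594). Kif20a shares 1271 exonic bases with Cdc23 on the opposite strand, which was not called (114 CPM with 6OHA, 108 to 114 CPM with BEX, 112 CPM untreated). Whether counting used strand is not given in the sources used here, so reads of the pair may not be separated.

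Kif18a, which dampens the movement of chromosomes as they align, had the highest log2 fold change of the set with 6OHA but was its least counted gene. It had 13.1 CPM with 6OHA, 10.0, 10.7 and 9.69 CPM with BEX and 9.78 CPM in untreated cells. The 6OHA library stood above the other 4. The log2 fold change was 0.42 over untreated (interval 0.08 to 0.76, edgeR adjusted p = 0.0787) and 0.37 over BEX (interval 0.10 to 0.64, adjusted p = 0.0879), and the difference from BEX was called without BEX replicate 2. Kif11, the motor that pushes spindle poles apart, had 65.1 CPM with 6OHA, 57.0 to 60.6 CPM with BEX and 55.1 CPM untreated, with a log2 fold change of 0.24 for 6OHA over untreated (adjusted p = 0.0653). It was called higher without BEX replicate 2 and without BEX replicate 3. Kif20b, Kif23, Kif2c and Kif4 had log2 fold changes between -0.15 and 0.16 in the 3 comparisons.

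All 4 spindle microtubule genes lay above the untreated library with 6OHA, against 49.3% of all tested genes, and Hmmr was called (25% called, against 14.8%). Hmmr, which binds hyaluronan and spindle microtubules, had 64.5 CPM with 6OHA, 55.4, 56.3 and 57.1 CPM with BEX, and 51.9 CPM in untreated cells. The libraries did not overlap, with 6OHA highest and untreated lowest. Hmmr rose with 6OHA by 0.31 on the log2 scale (interval 0.12 to 0.51, edgeR adjusted p = 0.0172). Against BEX the 6OHA library was 0.20 higher (interval 0.04 to 0.35, adjusted p = 0.0848), which did not pass, and BEX over untreated was 0.12 (adjusted p = 0.277). Tpx2, which activates Aurora A, and Nusap1, a bundler of spindle microtubules, had log2 fold changes of 0.12 and 0.13 with 6OHA and 0.09 and 0.10 with BEX. Prc1, which crosslinks microtubules of the central spindle, had 92.4 CPM with 6OHA, 84.1, 81.7 and 78.9 CPM with BEX and 87.4 CPM untreated, and was called higher with 6OHA than with BEX only without BEX replicate 2.

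**Figure D3:**
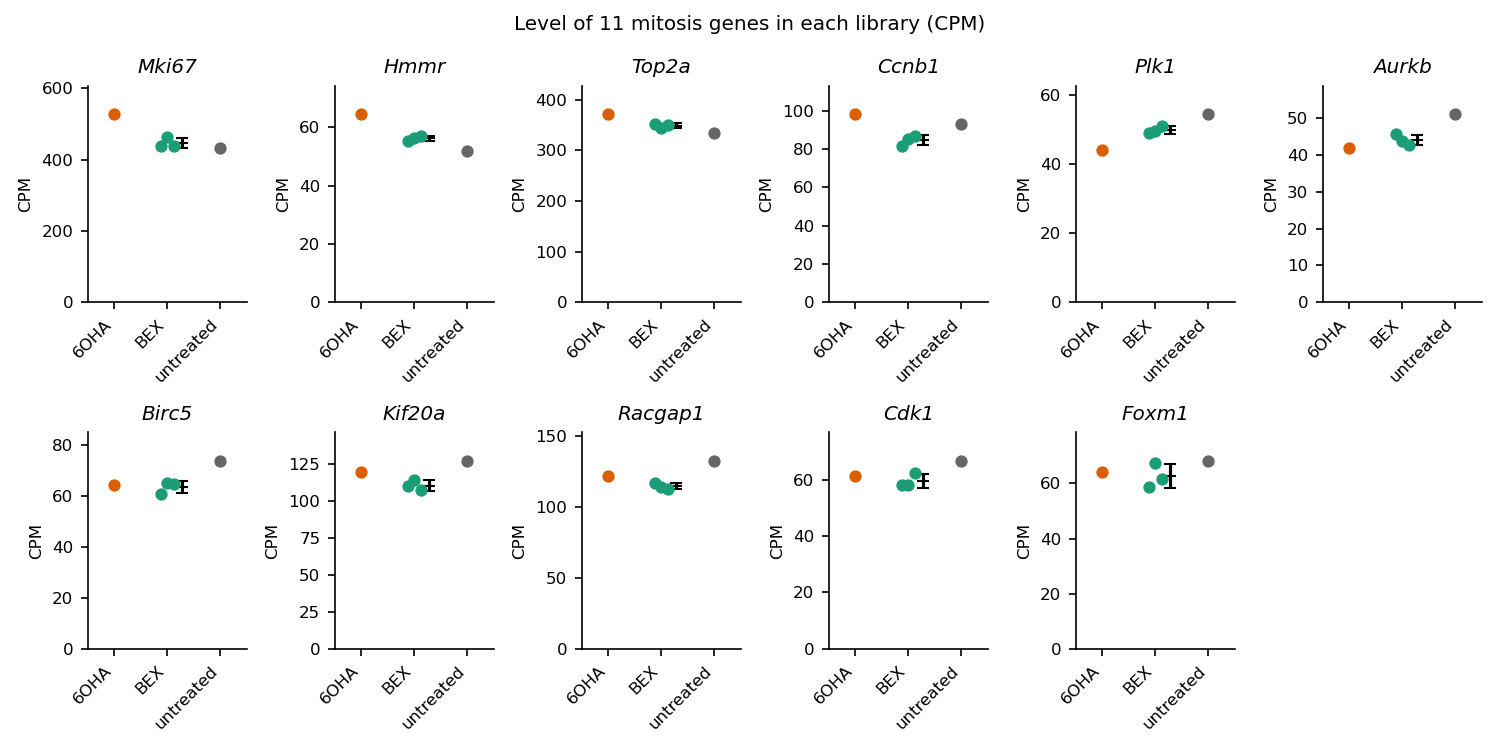
Level in CPM of 11 of the genes in each library, with 6OHA (orange, 1 library) on the left, BEX (green, 3 libraries, with mean and SD as a black bar) in the middle and untreated (grey, 1 library) on the right; every axis starts at 0. Mki67 and Hmmr are highest with 6OHA, Plk1 and Aurkb are lowest with it, and all treated libraries lie below the untreated library for Birc5, Kif20a and Racgap1.

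Of the 3 cytokinesis genes, Racgap1 fell with BEX (33.3% called, against 13.6% of all tested genes). With 6OHA and between the agonists 0 were called, against 14.8% and 6.53%. Racgap1 pairs with the kinesin Kif23 in the centralspindlin complex, which places the cleavage furrow. It had 121 CPM with 6OHA, 117, 114 and 112 CPM with BEX, and 132 CPM in untreated cells, so that the BEX libraries were lowest and the untreated library highest. The log2 fold change of BEX over untreated was -0.21 (interval -0.35 to -0.07, edgeR adjusted p = 0.0163), and that of 6OHA was -0.13 (adjusted p = 0.224). It stayed called without each BEX library. Its partner Kif23 had 64.3 CPM with 6OHA, 57.0, 60.8 and 58.2 CPM with BEX and 64.8 CPM untreated (log2 fold change with BEX -0.14, adjusted p = 0.176). Ect2, the exchange factor that centralspindlin recruits, and Anln, a scaffold of the contractile ring, had log2 fold changes of 0.15 and 0.14 with 6OHA and 0.00 and 0.02 with BEX.

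The 5 condensin and topoisomerase genes, which compact and untangle chromosomes, were not called in any comparison. Of all tested genes, 14.8% were called with 6OHA, 13.6% with BEX and 6.53% between the agonists. Top2a had 372 CPM with 6OHA, 353, 344 and 351 CPM with BEX, and 334 CPM in untreated cells. The libraries were ordered without overlap, but the log2 fold change of 6OHA over untreated was 0.15 (interval 0.01 to 0.29, edgeR adjusted p = 0.0672) and that of BEX 0.06 (adjusted p = 0.377). DESeq2 called the rise with 6OHA, and so did edgeR when BEX replicate 2 was left out. Smc2, Smc4, Ncapg and Ncapd2 had log2 fold changes between -0.07 and 0.12 in all comparisons.

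Mki67, the proliferation marker Ki-67 that coats mitotic chromosomes, showed the lowest adjusted p of the set. It had 528 CPM with 6OHA, 439.7, 464 and 439.8 CPM with BEX, and 433 CPM in untreated cells. The 6OHA library stood above the other 4, which lay close together. Mki67 rose by 0.29 over untreated (interval 0.14 to 0.44, edgeR adjusted p = 0.00405) and was 0.24 higher than with BEX (interval 0.11 to 0.36, adjusted p = 0.00798), while BEX over untreated was 0.05 (adjusted p = 0.528). Foxm1, the factor that drives many of these genes, had 64.1 CPM with 6OHA, 58.7, 67.4 and 61.8 CPM with BEX and 68.3 CPM untreated. It was not called: the log2 fold change was -0.09 for 6OHA (interval -0.33 to 0.14, edgeR adjusted p = 0.589), -0.12 for BEX (interval -0.32 to 0.07, adjusted p = 0.322) and 0.03 between the agonists (interval -0.16 to 0.23, adjusted p = 0.861).

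Transcript length moved with these differences. Length and GC content are those of each gene's longest coding GENCODE transcript, or its longest transcript where none is coding. That form need not be the one counted. With 6OHA, Birc5 had 64.2 CPM and 110 TPM, and Kif20a 120.0 CPM and 74.4 TPM. The lengths used here, 3334 and 3674 bases, are close, so they cannot both be those behind the deposited TPM. Mki67, with 10061 bases, had 528 CPM and 114 TPM with 6OHA, and Plk1, with 2199 bases, had 44.1 CPM and 42.8 TPM. Beside these genes and Kif20a, Birc5 had more TPM for its CPM than 3334 bases would give. The deposited TPM of Birc5 thus rest on a shorter length. Across the 46 genes, the log2 fold change correlated with log2 transcript length at Pearson r = 0.54 for 6OHA against untreated, 0.53 for BEX against untreated and 0.32 for 6OHA against BEX, and the Spearman coefficients were 0.54, 0.52 and 0.29. Over all tested genes with a known length, the Spearman coefficients were 0.21, 0.22 and 0.08. GC content went the other way, with Spearman coefficients of -0.43, -0.36 and -0.32 in the 46 genes, against -0.35, -0.19 and -0.29 over all tested genes, so that for 6OHA against BEX the values were close. These are descriptions across genes that share libraries, and the first 2 comparisons share the untreated one. Mki67, which rose with 6OHA, has a transcript of 10061 bases, and Plk1 and Aurkb, which fell, have 2199 and 1950 bases. By this measure, the other genes called against untreated lay nearer the median of 3826.5 bases. Hmmr, which rose with 6OHA, has 3892 bases, and Racgap1, Kif20a and Birc5, which fell with BEX, have 4475, 3674 and 3334 bases. For Birc5 this is longer than the length behind its TPM. With offsets for GC content and length, chosen after seeing the data, the 4 calls of 6OHA against untreated were lost: the log2 fold changes became 0.09 for Mki67 (adjusted p = 0.283), 0.24 for Hmmr (adjusted p = 0.0736), -0.12 for Plk1 (adjusted p = 0.425) and -0.19 for Aurkb (adjusted p = 0.199), while Cdc25b was called higher and Mad2l1 lower. Between the agonists Mki67 was still called, but its difference was 0.15 with the offsets (adjusted p = 0.0359), against 0.24 without them. Ccnb1 was still called at 0.22 (adjusted p = 0.0361), and Cdc25b and Cdc20 were called higher as well. With BEX, the calls of Birc5 (-0.24, adjusted p = 0.0215), Kif20a (-0.23, adjusted p = 0.00995) and Racgap1 (-0.26, adjusted p = 0.00342) remained. Over all tested genes, the offsets changed the share called from 14.8% to 8.49% for 6OHA against untreated. For BEX against untreated it went from 13.6% to 12.1%, and between the agonists from 6.53% to 5.4%. The part of length and GC content in the results was otherwise not tested.

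**Figure D4:**
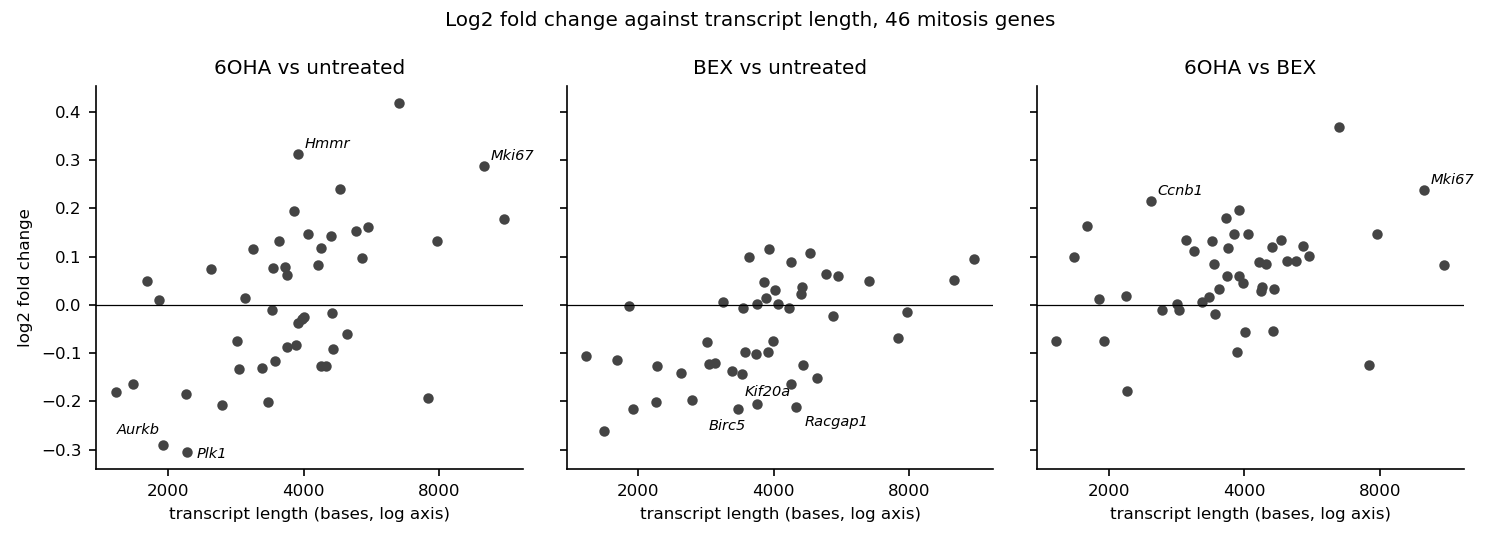
Log2 fold change of each of the 46 genes against the length in bases of its longest coding transcript (log axis) in the 3 comparisons, with the called genes named. Points rise to the right, with Pearson r of 0.54 on the left (6OHA against untreated), 0.53 in the middle (BEX against untreated) and 0.32 on the right (6OHA against BEX).

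Of 66 other mitosis genes, 2 rose and 6 fell with 6OHA (12.1% called, against 14.8% of all tested genes), with a median of -0.07. With BEX 0 rose and 3 fell (4.55%, against 13.6%), with a median of -0.12, and 24.2% had an unadjusted p under 0.05, against 26.7% of all tested genes. Pkmyt1, a kinase that holds CDK1 inactive, had 12.9 CPM with 6OHA, 18.6, 21.9 and 19.4 CPM with BEX, and 22.7 CPM in untreated cells. It fell by 0.82 over untreated (edgeR adjusted p = 0.00202) and was 0.63 lower with 6OHA than with BEX on the log2 scale (adjusted p = 0.00844). Wee1, another inhibitory kinase of CDK1, fell with BEX to 20.3, 21.5 and 21.6 CPM, against 28.8 CPM in untreated cells (log2 fold change -0.45, adjusted p = 0.00314), and had 25.3 CPM with 6OHA. Tubb4b, a beta tubulin, was called lower with both agonists, and Ckap5, which promotes microtubule growth, and Arhgap11a were called higher with 6OHA.

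Of 17 genes of the anaphase-promoting complex and its partners, 1 rose and 1 fell with 6OHA, Cdc27 and Anapc2, and 2 fell with BEX, Anapc11 and Ube2s. That was 11.8% called with each agonist, against 14.8% of all tested genes with 6OHA and 13.6% with BEX. Between the agonists 0 of the 17 were called, against 6.53%. Among 16 tested regulators of mitotic transcription, Mybl2, which encodes B-MYB, was called lower with each agonist, and Nfyc was called lower with 6OHA than with BEX. These calls made up 6.25% of the regulators in each comparison, below the same background shares. Mybl2 had 20.1 CPM with 6OHA, 21.9, 23.0 and 20.5 CPM with BEX, and 29.0 CPM in untreated cells. All 4 treated libraries lay below the untreated one, and the log2 fold changes were -0.53 for 6OHA (adjusted p = 0.00851) and -0.41 for BEX (adjusted p = 0.00799).

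Among 19 tested CDK inhibitors and p53 targets, 1 rose and 1 fell with 6OHA (10.5% called, against 14.8%), and 4 rose and 1 fell with BEX (26.3%, against 13.6%). The 4 that rose with BEX were Sesn2 (0.84), Gadd45a (0.93), Plk2 (0.55) and Ccng2 (0.38), in log2 units. The gene that fell with BEX was Cdkn1c, the CDK inhibitor p57, at a low level of 1.88 CPM with 6OHA, 2.24, 2.26 and 1.71 CPM with BEX and 3.63 CPM in untreated cells. Its log2 fold change was -0.82 with BEX (edgeR adjusted p = 0.0386) and -0.94 with 6OHA (adjusted p = 0.06, not called). With 6OHA, Plk2 rose by 0.39, and Cdkn2a, which encodes the CDK inhibitor p16 and the p53 activator ARF, fell by 0.50 on the log2 scale (adjusted p = 0.0083). Between the agonists 0 were called higher and 3 lower with 6OHA (15.8% called, against 6.53% of all tested genes). Sesn2 and Gadd45a, which respond to several stresses, were lower with 6OHA than with BEX by 0.72 and 0.48. Trp53 itself had 1.97 CPM with 6OHA, 1.54 to 2.12 CPM with BEX and 1.94 CPM untreated. Cdkn1a, the CDK inhibitor p21, had 75.5 CPM with 6OHA, 79.8 to 86.4 CPM with BEX and 79.9 CPM untreated, and was not called.

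The genes of the preceding phase were called in larger numbers. Of 47 genes of G1/S and replication, 1 rose and 23 fell with 6OHA (51.1% called, against 14.8%; median -0.31), and 1 rose and 22 fell with BEX (48.9%, against 13.6%; median -0.23), beside 2 higher and 2 lower, and 0 higher and 3 lower, of the 46 mitotic genes. The gene that rose with each agonist was the D-type cyclin Ccnd2 (log2 fold change 0.65 with 6OHA and 0.88 with BEX). Ccnd3, another D-type cyclin of G1, had 72.0 CPM with 6OHA, 71.8, 73.7 and 73.3 CPM with BEX, and 125 CPM in untreated cells. The difference between the lists was not tested.

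**Figure D5:**
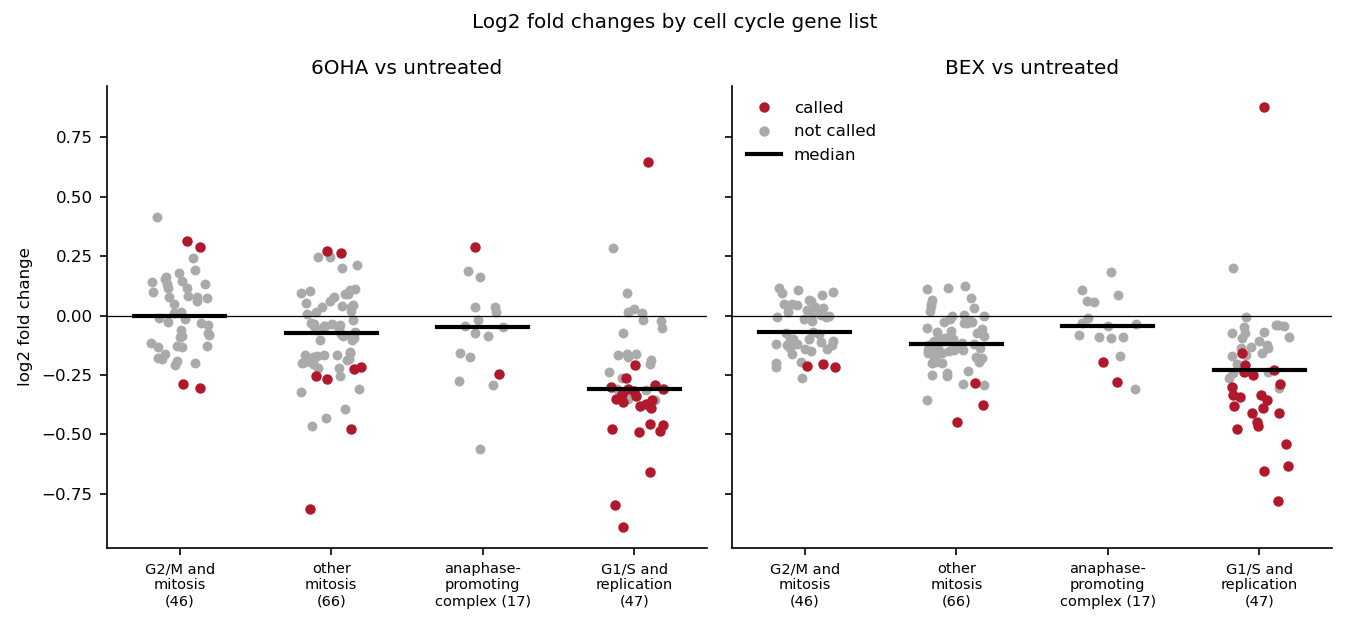
Log2 fold change of each gene (points; red for called, grey for not called) in 4 lists of cell cycle genes, with the number of genes below each name and the median as a black line, for 6OHA against untreated (left) and BEX against untreated (right). The medians of the 46 mitotic genes lie at -0.000256 and -0.07, and those of the 47 G1/S and replication genes at -0.31 and -0.23.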

How the data were processed

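Poly-A RNA of MG5 cells was sequenced from TruSeq stranded libraries, and the gene table that the authors deposited (mm10) gives read counts, TPM and FPKM. The submitters' processing notes name, without roles, StringTie 2.1.3b, HISAT2 2.1.0, Bowtie2, SAMtools 1.9, Trimmomatic 0.38 and bcl2fastq 2.20.0. Deposited counts were whole numbers, 33823181 to 40545305 per library, and entered every main test. Levels between genes and some alternative tests rest on the deposited TPM; no use was made of the deposited FPKM. Intervals cover the spread between BEX libraries and counting error.

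All 5 libraries entered 1 edgeR 4.0.16 quasi-likelihood fit (R 4.3.3, TMM factors, 3 groups), on 15462 genes kept by filterByExpr (minimum count 10, minimum total 15). It had 2 residual and 10.6 prior degrees of freedom, and p-values are two-sided with Benjamini-Hochberg adjustment, called under 0.05. CPM use the TMM library sizes. These steps were tested on simulated counts with known fold changes. Alternatives left out each BEX library, fitted the compared groups alone, dropped the filter or required a mean count of 20, and used limma-voom (limma 3.58.1), limma on log2(TPM + 1) or log2(TPM + 0.1), DESeq2 1.42.0 or RLE factors; the older edgeR method and offsets for GC content and length (available for 92.2% of tested genes, from GENCODE M21) were chosen after seeing the data. The genes, their roles, the comparison lists, the naming rule and the tests were chosen with earlier results of these data known, so counts over lists are descriptions. Every gene of the set is described under its role; levels per library with tests are given for called genes and for Mki67, Top2a, Ccnb1, Cdk1, Plk1, Aurkb and Foxm1, and of other lists called genes with the smallest adjusted p, with Trp53 and Cdkn1a. Cdkn1c, Cdkn2a, Ccnd2 and the named markers of other cell types were chosen after their values were seen. Promoters come from RefSeq GRCm38.p6, in which Kif20a, Smc4, Incenp, Ccna2, Aurkb, Foxm1, Cdc25c and Tpx2 had no entry used here.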

Additional observations from a re-analysis of the deposited data

How the results depend on the processing

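The 3 median log2 fold changes of the 46 genes moved by less than the median standard error of a single gene under all alternatives run, but that of 6OHA against untreated lies so close to 0 that its sign has no meaning. Of the alternative values, 177 counts stayed within 1.5 times and 71 did not. Of those for single genes 371 kept direction and stayed called or not called, 39 lost a call, 4 gained one and 4 turned round. Most single-gene comparisons had not been called in the main fit, so they had no call to lose. The main calls held least often for Aurkb with 6OHA against untreated, under 5 of 12 alternatives. They held most often for Mki67 in that comparison, under 11 of 12. Where calls changed, the cause was not tested. In what follows each number replaces the count of called genes given in the report.

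DESeq2 called 1 of the 46 genes lower with BEX, 0 lower with 6OHA and 1 higher with 6OHA than with BEX. Of all tested genes it called 9.45% for BEX against untreated, 10.7% for 6OHA against untreated and 5.02% between the agonists. It called 14 G1/S genes lower with BEX, 13 lower with 6OHA and 0 lower with 6OHA than with BEX, and 2 other mitosis genes lower with 6OHA. Limma-voom called 1 of the 46 genes lower with 6OHA and 1 higher with 6OHA than with BEX. RLE factors gave 2 G1/S genes higher with 6OHA. In the same order of comparisons, limma-voom called 12.2%, 13.1% and 4.95% of all tested genes. With RLE factors the shares were 13.8%, 15% and 6.64%.

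Limma on log2(TPM + 1) and on log2(TPM + 0.1) both called 0 of the 46 genes lower with BEX, 1 higher and 0 lower with 6OHA, and 0 higher with 6OHA than with BEX. Both called 1 other mitosis gene lower with BEX, 1 higher and 1 lower with 6OHA, and 0 lower with 6OHA than with BEX. They called 6 and 7 G1/S genes lower with BEX, 4 with 6OHA under either pseudocount, and 0 lower with 6OHA than with BEX. Of all tested genes, log2(TPM + 1) gave 5.87% called for BEX against untreated, 5.08% for 6OHA against untreated and 0.55% between the agonists. With log2(TPM + 0.1) the shares were 6.31%, 5.62% and 0.931%. In deposited TPM, all BEX libraries lay above the untreated library for 20 of the 46 genes.

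With no filter on low counts, 21819 genes were tested. Of these, 5.57% were called for BEX against untreated, 5.2% for 6OHA against untreated and 0.871% between the agonists. Then 0 of the 46 genes were lower with BEX, 1 higher and 0 lower with 6OHA, and 0 higher with 6OHA than with BEX. Of other mitosis genes 1 was higher and 2 lower with 6OHA, and 0 lower with 6OHA than with BEX. Of G1/S genes 13 were lower with BEX, 11 lower with 6OHA and 0 lower with 6OHA than with BEX. With a mean count of 20 required, 5 of the 46 genes were lower with BEX, 2 G1/S genes higher with 6OHA and 1 other mitosis gene higher with 6OHA than with BEX. The shares of all tested genes were then 17.3%, 19.2% and 9.06% in the same order of comparisons.

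Leaving out each BEX library in turn gave 1 to 6 of the 46 genes lower with BEX, 2 to 4 higher with 6OHA and 1 to 4 higher with 6OHA than with BEX. Of all tested genes, 12% to 18.4% were then called for BEX against untreated and 14.9% to 21.1% for 6OHA against untreated. Between the agonists the share was 5.66% to 10.9%. The 6OHA library lay below all BEX libraries left for 5 to 10 of the 46 genes. Other mitosis genes called were 2 to 5 lower with BEX, 2 to 4 higher with 6OHA and 0 to 2 higher with 6OHA than with BEX. G1/S genes called were 1 to 2 higher with BEX, 1 to 2 higher with 6OHA, and 0 to 1 higher and 0 to 7 lower with 6OHA than with BEX. The log2 difference of 6OHA over BEX ranged from -0.016 to 0.035 for Birc5 and from -0.011 to 0.089 for Foxm1, with the negative values without BEX replicate 1.

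The older edgeR method and the offsets for GC content and length were chosen after seeing the data. The older method called 1 of the 46 genes lower with 6OHA, where it called 15.1% of all tested genes in either direction. With the offsets, 1 of the 46 genes was higher and 1 lower with 6OHA, and 4 were higher with 6OHA than with BEX. The offsets left 12.1% of all tested genes called for BEX against untreated, 8.49% for 6OHA against untreated and 5.4% between the agonists. Of other mitosis genes 5 were lower with BEX, and 0 higher and 1 lower with 6OHA; of G1/S genes 1 was higher and 0 lower with 6OHA than with BEX. The log2 fold changes of BEX over untreated turned to -0.060 for Mki67 and -0.0054 for Top2a. Fitting the compared groups alone changed none of these counts by more than 1.5 times.

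No paired analysis was possible because the groups compared share at most 1 replicate number, number 2 between 6OHA and BEX and number 3 between BEX and untreated cells. With 1 library of 6OHA and 1 of untreated cells, leaving out a library of either ends its comparisons, and a fault of either library cannot be told apart from an effect.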
